A study of Mus musculus with 3 samples.

Results

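CXCR3+ innate CD8+ T cells were compared with naive CD8+ T cells, with 1 microarray for each population, so 2 of the 3 arrays of the series carry the comparison and the CXCR3- innate array is shown beside them. All populations came from C57BL/6 mice with a CXCR3-GFP reporter, in which green fluorescence marks cells that use the gene of this chemokine receptor, and the labels also call them CIBER mice. The mice are described as naive and were housed free of pathogens, and spleen and lymph node cells were combined in each sample. Age, sex and any treatment are not given in the sources used here, and the reporter is shared by every population. RNA came from about 3 to 5 mice, and whether the same mice gave all populations is not stated. Antibodies to surface markers that include CD44 and CD8 were used for the sort, and the gates are not described. Values are log2 expression, and the 10191 genes with a single symbol in the platform annotation were compared by subtracting the naive value from the CXCR3+ innate value. A gene was counted as higher or lower when the values were at least 1.5-fold apart (0.58 on the log2 scale) and the higher one reached the median of its array, 7.63 for CXCR3+ innate and 7.65 for naive cells. Where 3 values of a gene follow each other, they are those of CXCR3+ innate, CXCR3- innate and naive cells, and where a pair is given it is CXCR3+ innate and naive. Any difference of CXCR3- innate from naive cells uses the same naive array. By this size rule 51 genes were higher, 0.5% of those compared, and 71 were lower, 0.697%, which makes 122 genes or 1.2% in all. Gene lists were written with earlier results of these data known. A share of their members past the rule is therefore a description and no independent support. With 1 array a side there is no spread between replicates to set a difference against, and no test, standard error or p-value is given.

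Innate, or memory-phenotype, CD8+ T cells carry the surface marks of memory without known exposure to a foreign antigen. They are known for dependence on interleukin-15, which signals through the receptor chain encoded by Il2rb, and for control by the T-box transcription factors T-bet and Eomes. They respond to inflammatory cytokines such as interleukin-12 and interleukin-18 with little need for their antigen receptor. Naive CD8+ T cells instead circulate through lymph nodes with the help of CCR7 and the egress receptor S1PR1, and are held quiescent by factors such as LEF1.

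The labels were first set against the genes that define the sort. Cd44, the adhesion receptor used for staining, was at 8.30 in CXCR3+ and 7.88 in CXCR3- innate cells and at 7.24 in naive cells, a 2.08-fold difference between the compared arrays. Cxcr3 itself was at 7.97, 7.82 and 7.57 in that order, which is 1.32-fold and does not reach the size rule. All 7 measured genes of the 10 listed as CD8 T cell markers lay between 8.72 and 11.45 in CXCR3+ innate and between 8.72 and 11.81 in naive cells. Among them Cd8a differed by -0.29, Cd8b1 by -0.24 and Cd3e by -0.36.

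Markers of other cells were mostly not measured. The table lists a probe set only where at least 1 array reached 7.00002, and the 1108 probe sets with several symbols and 733 with none were left out. Of the CD8 T cell markers too only 7 of 10 were measured, so absence does not show a low level. The summed linear values of 3 measured of 20 B cell markers were 462 and 445, of 3 of 7 plasma cell markers 629 and 723, and of 2 of 8 CD4 and regulatory T cell markers 308 and 340. Macrophages had 8 of 20 measured (1561 and 1684), dendritic cells 3 of 12 (513 and 490), and neutrophils and mast cells 4 of 14 (872 and 852). Gamma-delta T cells had 2 of 10 (497 and 421), natural killer T and MAIT cells 4 of 11 (726 and 787), red cells and platelets 3 of 16 (498 and 496), and stroma 6 of 13 (1010 and 1173). Of 15 natural killer cell markers 3 were measured and summed to 522 and 402, of which Eomes is also a gene of memory CD8+ T cells, Ncr1 was equal at 7.19, and Fcer1g was at 7.07 and 6.93. Past the size rule were Eomes, Pecam1 of the stroma list and Slamf1 of the natural killer T cell list. Many of these markers had low values. Those of B cells, for example, lay between 7.07 and 7.55 in CXCR3+ innate and between 7.04 and 7.43 in naive cells. That is near the level of 7.00002, and sums of such values do not show whether the cells were present. The part of these cells in the differences was not tested. In sorted bulk samples, fewer cells that express a gene and less RNA of it per cell cannot be told apart.

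Most genes differed little. The values of 4587 genes, 45.0%, were exactly equal on both arrays, 2114 were above 0 and 3490 below, and 88.5% lay within 0.25 on the log2 scale. Exactly equal values made up 60.4% of genes below 7.5 and 3.85% of those at 10 or above. Here and below, an equal value on 2 arrays does not show equal expression. The share of genes at least 1.5-fold apart grew with the level, from 0.377% of the 3975 genes below 7.5 on both arrays to 8.39% of the 286 genes at 10 or above. The share over all genes is thus a low comparator for lists of bright genes. The median difference also moved with the level, from 0 below 8 to -0.12 among the 703 genes between 9 and 10 and -0.12 among those above. A slight excess of lower values in bright genes is therefore general on these arrays. Lists of bright genes are given with their median after cyclic loess, which is meant to remove such a trend. Whether it did so at each level was not checked. As a gauge from genes with no known role in T cells, 3 of 542 olfactory and vomeronasal receptor genes passed the size rule, or 0.554%, with differences from -0.64 to 0.75. Their median values were only 7.72 and 7.69, and of all genes between 7.5 and 8, 0.953% were 1.5-fold apart. The gauge thus says little about bright genes.

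**Figure D1:**
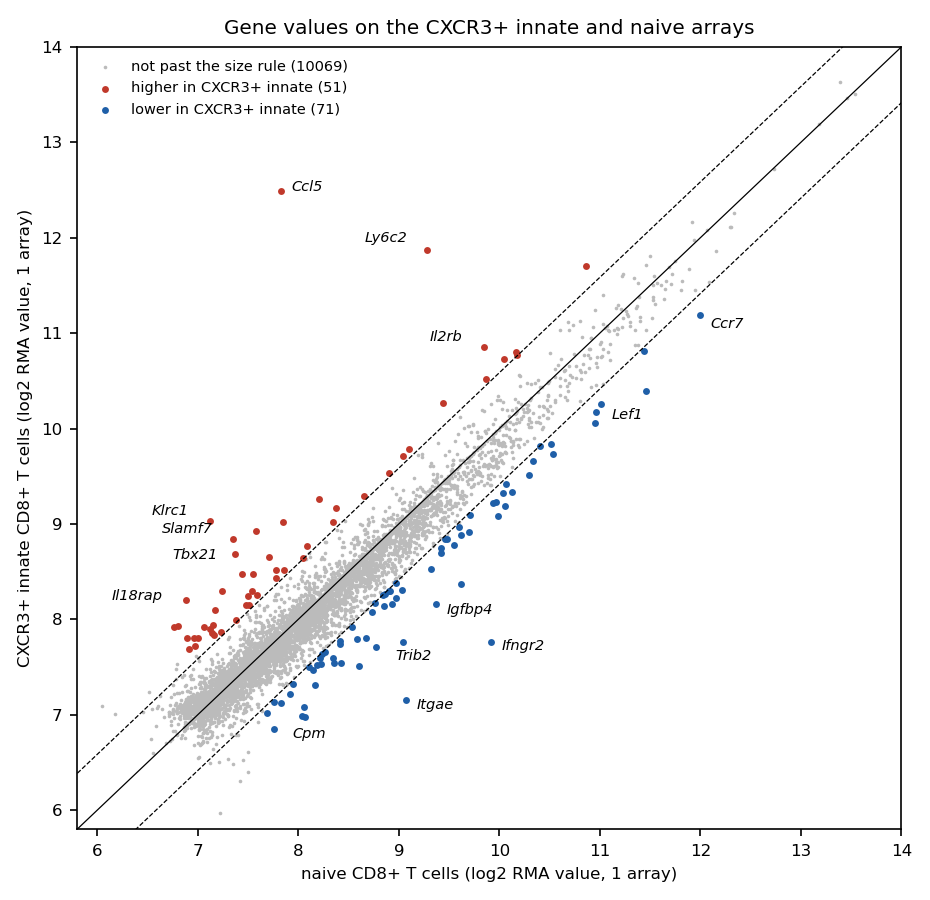
Each point is 1 of 10191 genes, with its log2 value in naive cells on the x axis and in CXCR3+ innate cells on the y axis; the solid line marks equal values and the dashed lines 1.5-fold. Red points are the 51 genes higher and blue points the 71 genes lower by the size rule, and Ccl5, at 7.83 and 12.49, stands far above the rest.

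The genes that were higher led with secreted and surface molecules of effector lymphocytes. Ccl5, a chemokine that recruits T cells and monocytes, was at 12.49 in CXCR3+ and 10.85 in CXCR3- innate cells and at 7.83 in naive cells, a 25.2-fold difference. It was among the brightest genes of the CXCR3+ innate array and near the middle of the naive one. Ly6c2, whose product marks the surface of memory-phenotype cells, stood at 11.87, 10.38 and 9.28, which is 6.00-fold. Its near-identical neighbour Ly6c1 can share probes with it, so the value may belong to either copy. Xcl1, a chemokine that attracts cross-presenting dendritic cells, was at 8.92, 8.18 and 7.58, or 2.54-fold. Of 7 measured chemokine genes these 2, Ccl5 and Xcl1, passed the rule upward and none downward, against 0.5% of all genes, and the list median was 0.54 against 0 over all genes. Ccl4, at 8.63 against 8.07, fell just outside the threshold at 1.47-fold, and Ccl3 differed by 0.54.

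Promoter sequences are shown for some of the genes past the rule that have one, some higher and some lower, so that their letters can be set side by side. They are the 250 bases before the RefSeq transcription start in GRCm38.p6, 5′ to 3′ on the gene's strand, with capitals marking matches to any of 7 motifs searched on both strands. The motifs were T-box TCACACC, TCF/LEF CTTTGAA, AP-1 TGANTCA, STAT TTCNNNGAA, RUNX TGTGGTT, ETS CAGGAAG and KLF GGGTGGG, and matches could overlap. The windows are Xcl1 at chr1:164935523-164935772 on the minus strand, Ly6c2 at chr15:75111972-75112221 on the minus strand, Tbx21 at chr11:97115332-97115581 on the minus strand, Il18rap at chr1:40515112-40515361 on the plus strand, Ifngr2 at chr16:91546809-91547058 on the plus strand, Itga4 at chr2:79255176-79255425 on the plus strand and Itgb7 at chr15:102231936-102232185 on the minus strand. Xcl1, Ly6c2, Tbx21 and Il18rap are shown as genes that were higher, and Ifngr2, Itga4 and Itgb7 as genes that were lower.
Xcl1: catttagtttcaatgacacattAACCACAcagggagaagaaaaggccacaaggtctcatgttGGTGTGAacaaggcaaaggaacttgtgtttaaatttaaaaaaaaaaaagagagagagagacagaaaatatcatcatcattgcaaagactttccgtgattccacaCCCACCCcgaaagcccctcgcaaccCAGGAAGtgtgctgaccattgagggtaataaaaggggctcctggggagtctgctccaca
Ly6c2: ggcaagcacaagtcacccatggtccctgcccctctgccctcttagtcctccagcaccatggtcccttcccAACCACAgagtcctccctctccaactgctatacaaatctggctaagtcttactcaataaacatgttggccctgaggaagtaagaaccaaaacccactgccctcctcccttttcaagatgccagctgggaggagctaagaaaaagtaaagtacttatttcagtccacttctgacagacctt
Tbx21: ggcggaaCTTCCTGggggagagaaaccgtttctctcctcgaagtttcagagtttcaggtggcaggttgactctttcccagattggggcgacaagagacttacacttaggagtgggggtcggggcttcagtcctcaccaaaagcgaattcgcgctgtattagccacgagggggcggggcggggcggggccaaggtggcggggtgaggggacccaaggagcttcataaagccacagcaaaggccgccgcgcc
Il18rap: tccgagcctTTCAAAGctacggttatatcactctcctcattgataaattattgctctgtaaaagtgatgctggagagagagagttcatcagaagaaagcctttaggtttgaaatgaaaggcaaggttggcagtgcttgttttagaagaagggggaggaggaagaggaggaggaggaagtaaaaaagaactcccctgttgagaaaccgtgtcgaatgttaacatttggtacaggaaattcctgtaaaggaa
Ifngr2: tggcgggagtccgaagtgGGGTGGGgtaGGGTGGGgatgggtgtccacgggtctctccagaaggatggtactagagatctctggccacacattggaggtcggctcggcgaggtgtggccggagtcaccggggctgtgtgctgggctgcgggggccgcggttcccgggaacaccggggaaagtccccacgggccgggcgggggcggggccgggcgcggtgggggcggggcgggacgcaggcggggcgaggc
Itga4: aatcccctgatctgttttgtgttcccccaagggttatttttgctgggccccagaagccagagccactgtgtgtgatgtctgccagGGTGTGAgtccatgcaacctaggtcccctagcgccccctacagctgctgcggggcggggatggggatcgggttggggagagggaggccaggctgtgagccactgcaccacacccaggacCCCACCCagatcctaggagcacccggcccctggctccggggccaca
Itgb7: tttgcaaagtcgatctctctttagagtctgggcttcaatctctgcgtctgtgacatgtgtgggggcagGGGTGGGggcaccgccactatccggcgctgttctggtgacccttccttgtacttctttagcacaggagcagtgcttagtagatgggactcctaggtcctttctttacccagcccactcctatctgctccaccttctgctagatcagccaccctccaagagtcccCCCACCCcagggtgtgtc
The window of Xcl1 holds a RUNX match 228 bases before the start, a T-box match at 188, a KLF match at 84 and an ETS match at 59. Ly6c2 holds a RUNX match at 180, Tbx21 an ETS match at 243 and Il18rap a TCF/LEF match at 241. Ifngr2 holds KLF matches at 232 and 222, Itgb7 at 182 and 18, and Itga4 a KLF match at 46 beside a T-box match at 165. Each window shown holds a match, so the choice does not stand for the genes past the rule. The windows of Klrc1, Eomes and Plek, which were higher, and of Trib2, Rab3ip and Igfbp4, which were lower, hold none. Ccl5, Il2rb and Itgae had no window.

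Windows were found for 31 of 51 genes that were higher and for 49 of 71 that were lower, and some genes have several overlapping windows. A site that lies in several windows of a gene is counted in each. The RUNX match of Ly6c2, for example, stands 180 bases before the start in 1 window and 214 in the other. The counts below are thus of windows and not of genes or sites, and can overstate a difference between genes. The RUNX letters stood in 5 of 36 windows of higher genes (13.9%), in 1 of 59 windows of lower genes (1.69%) and in 3.47% of the 9818 windows of all measured genes. Those of STAT stood in 6 of 36 (16.7%), 1 of 59 (1.69%) and 6.37%, and those of ETS in 8 of 36 (22.2%), 6 of 59 (10.2%) and 10.2%. The KLF letters went the other way, with 4 of 36 (11.1%), 15 of 59 (25.4%) and 18.3%. T-box letters stood in 2 higher, 1 lower and 3.08% of all windows, AP-1 letters in 3, 2 and 5.42%, and TCF/LEF letters in 1, 0 and 3.43%. These counts are small and were not tested, and a match is not a bound site.

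Receptors of natural killer cells formed the next group. Klrc1, encoding the inhibitory receptor NKG2A, was at 9.03 in CXCR3+ and 7.69 in CXCR3- innate cells and at 7.12 in naive cells, or 3.75-fold. Slamf7, a homotypic receptor of cytotoxic lymphocytes, was at 8.84, 8.17 and 7.35, which is 2.81-fold. Lilrb4a, an inhibitory receptor of the immunoglobulin family, was at 8.48, 7.76 and 7.44, or 2.06-fold. In each of these genes the CXCR3+ innate value was the highest and the naive value the lowest. Of 13 measured members of the natural killer receptor list, 4 were higher, 1 was lower and 8 did not pass, against 0.5% and 0.697% of all genes. The list median was 0.22, or 0.09 with values below 7 set to 7. Klrd1, which encodes CD94, the partner chain of NKG2A, was bright on both arrays at 9.65 and 9.79 and differed by only -0.14. Klra9, of the Ly49 family whose members are close copies, was at 7.09 and 6.05 and stayed below the level filter.

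A pair of receptors for the same ligand went in opposite directions. Cd226, an activating receptor for the poliovirus receptor CD155, was at 7.71 in CXCR3+ and 8.24 in CXCR3- innate cells and at 8.77 in naive cells, 2.09-fold lower. Tigit, the inhibitory receptor for CD155, was at 7.87, 7.79 and 7.23, 1.56-fold higher. Cd96, another receptor of the family, was at 9.47, 9.53 and 9.91, a difference of -0.44 that does not pass. Naive cells thus had the higher Cd226 and Cd96 values and the lower Tigit value. The wider list of costimulatory and checkpoint receptors had 2 higher and 2 lower of 28, against 0.5% and 0.697% of all genes. Its median was 0 and it had 12 exactly equal values, among them Pdcd1, encoding PD-1, at 7.54. Slamf1, a homotypic receptor of T cells, was lower at 7.14 against 7.76, but not with an offset of 16 on the linear scale.

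**Figure D2:**
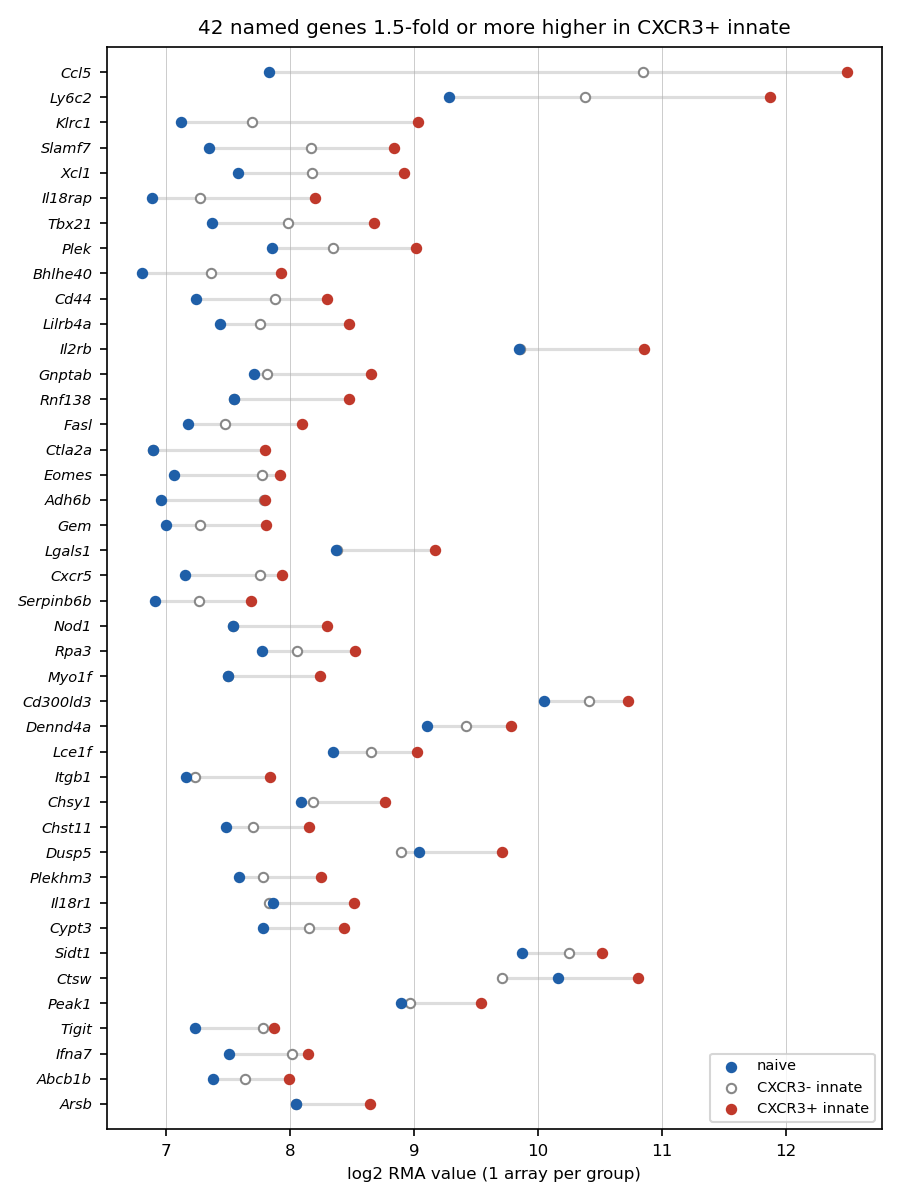
The 42 nameable genes that were higher by the size rule are listed by fold, and circles give the log2 value on the x axis in CXCR3+ innate (red), CXCR3- innate (open) and naive cells (blue), 1 array each; a hidden circle lies under another. Ccl5 and Ly6c2 span the longest distances, and most other genes start near or below 8 in naive cells.

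A few killing genes were higher. Fasl, the death ligand, was at 8.10 in CXCR3+ and 7.48 in CXCR3- innate cells and at 7.18 in naive cells, or 1.90-fold. Serpinb6b, of a family of intracellular protease inhibitors, was at 7.69, 7.26 and 6.91, or 1.71-fold, and has close copies in the genome. Ctsw, a lysosomal protease of cytotoxic cells, was at 10.80, 9.71 and 10.16, or 1.56-fold, with the CXCR3- innate value the lowest of the arrays. Of 20 measured members these 3 were higher and none lower, against 0.5% of all genes higher, with a list median of 0.13. Perforin (Prf1) was equal at 9.39, Nkg7, a granule membrane protein, was at 11.62 and 11.23, and Gzmk was equal at 7.48. Granzyme B, at 7.06 and 6.88, and granzyme M, at 7.37 and 6.95, had low values on both arrays. Ctla2a, named for a cytotoxic T cell transcript and related to cathepsin propeptides, was at 7.80, 6.90 and 6.90, or 1.87-fold.

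Transcription factors of effector and memory cells were divided. Tbx21, encoding T-bet, was at 8.68 in CXCR3+ and 7.98 in CXCR3- innate cells and at 7.37 in naive cells. Eomes was at 7.92, 7.77 and 7.06, or 1.81-fold, so both T-box factors passed the rule. Bhlhe40, a factor that supports interferon gamma production, was at 7.93, 7.36 and 6.81, or 2.17-fold. Id2, which restrains E proteins, went the other way at 9.08, 9.04 and 9.99, 1.88-fold lower. The list had 3 higher, 1 lower and 14 not past of 18 measured, against 1.2% of all genes past the rule in either direction, with 6 equal values and a median of 0. Zbtb16, encoding PLZF, a factor of natural killer T cells, was at 7.75 and 7.67, and Gata3 was equal at 7.42.

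Among cytokine receptors, the chains of the interleukin-18 receptor were higher, and so was Il2rb, a chain that interleukin-2 and interleukin-15 share. Il18rap, the accessory chain of the interleukin-18 receptor, was at 8.20 in CXCR3+ and 7.28 in CXCR3- innate cells and at 6.88 in naive cells, or 2.49-fold. Il18r1, the ligand-binding chain, was at 8.52, 7.83 and 7.86, or 1.58-fold. The chains are encoded by adjacent genes, and Il18r1 separated the CXCR3+ innate array from both others. Il2rb was at 10.85, 9.86 and 9.85, with the CXCR3- innate and naive values almost the same. Il15ra, the chain that presents interleukin-15, was at 7.62 and 7.56, and Il12rb2, which responds to interleukin-12, was at 7.65 and 7.31. Stat4, the signal transducer of interleukin-12, was at 10.45 and 10.20, and none of these 3 passed. Downstream of Il2rb, the survival gene Bcl2 differed by 0.27, Mcl1 by -0.52 and Stat5b by -0.42. Among the 14 measured genes of interleukin-2 and interleukin-15 signalling, Il2rb alone passed, 7.14% against 1.2% of all genes. The median was 0. Of 15 measured genes of the interleukin-12, interleukin-18 and interferon gamma axis 2 were higher and 1, Ifngr2, was lower. This stands against 0.5% and 0.697% of all genes, also with a median of 0.

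The gene that was lower by most also encodes a receptor chain. Ifngr2, the signalling chain of the interferon gamma receptor, was at 7.76 in CXCR3+ and 8.91 in CXCR3- innate cells and at 9.92 in naive cells, 4.46-fold lower. Ifngr1, the ligand-binding chain, was at 10.95, 10.91 and 10.91. The difference was thus in 1 chain only, and the chains of the type I interferon receptor, Ifnar1 at 8.80 on every array and Ifnar2 at 8.96 and 9.06, did not pass. Among interferon-inducible genes, the guanylate-binding proteins Gbp9, at 7.31, 7.50 and 8.17, and Gbp8, at 7.54, 8.09 and 8.36, were 1.82-fold and 1.77-fold lower. These are adjacent members of a family of close copies, so their probes may overlap in what they read. Gbp4, at 6.54 and 7.30, and the immunity-related GTPase gene Igtp, at 6.93 and 7.60, were more than 1.5-fold lower but below the level filter. Of 28 measured interferon receptor and interferon-stimulated genes, 3 were lower, namely Ifngr2 and the close copies Gbp8 and Gbp9, against 0.697% of all genes, and none was higher, with a median of -0.04. Of the list 16 members were below 0, 9 equal and 3 above. The equal ones include Ifit1 at 8.30, Irf7 at 8.21 and Ifit3 at 8.42, and those below 0 that did not pass include Ifi209 at -0.34, Irf9 at -0.30 and Samhd1 at -0.24. Irf1 was equal at 8.22. Among genes singled out after their values were seen, 2 were also lower: Nlrc5, the activator of class I antigen presentation, at 8.30 and 8.91, and the DNA sensor Aim2 at 7.22 and 7.92. Nlrc5 did not pass after quantile normalization or cyclic loess, nor with the offset on the linear scale.

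Among cytokine receptors, the shared chain gp130 was lower. Il6st, which encodes gp130, was at 9.33 in CXCR3+ and 9.70 in CXCR3- innate cells and at 10.04 in naive cells, 1.63-fold lower. Il27ra, the interleukin-27 chain that pairs with it, was at 9.66, 9.89 and 10.33, 1.60-fold lower, but did not pass after quantile normalization. Il6ra, the interleukin-6 chain, was at 8.45 and 8.79 and did not pass. Il7r, the receptor for the survival cytokine of naive cells, was bright and nearly equal at 11.25 and 11.21, and Il4ra was at 9.97 and 9.86. Of 12 measured receptor and signalling genes for IL-4, IL-6, IL-7, IL-10 and IL-21, 2 were lower and none higher, against 0.697% of all genes lower, with a median of -0.16, or -0.12 after cyclic loess.

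**Figure D3:**
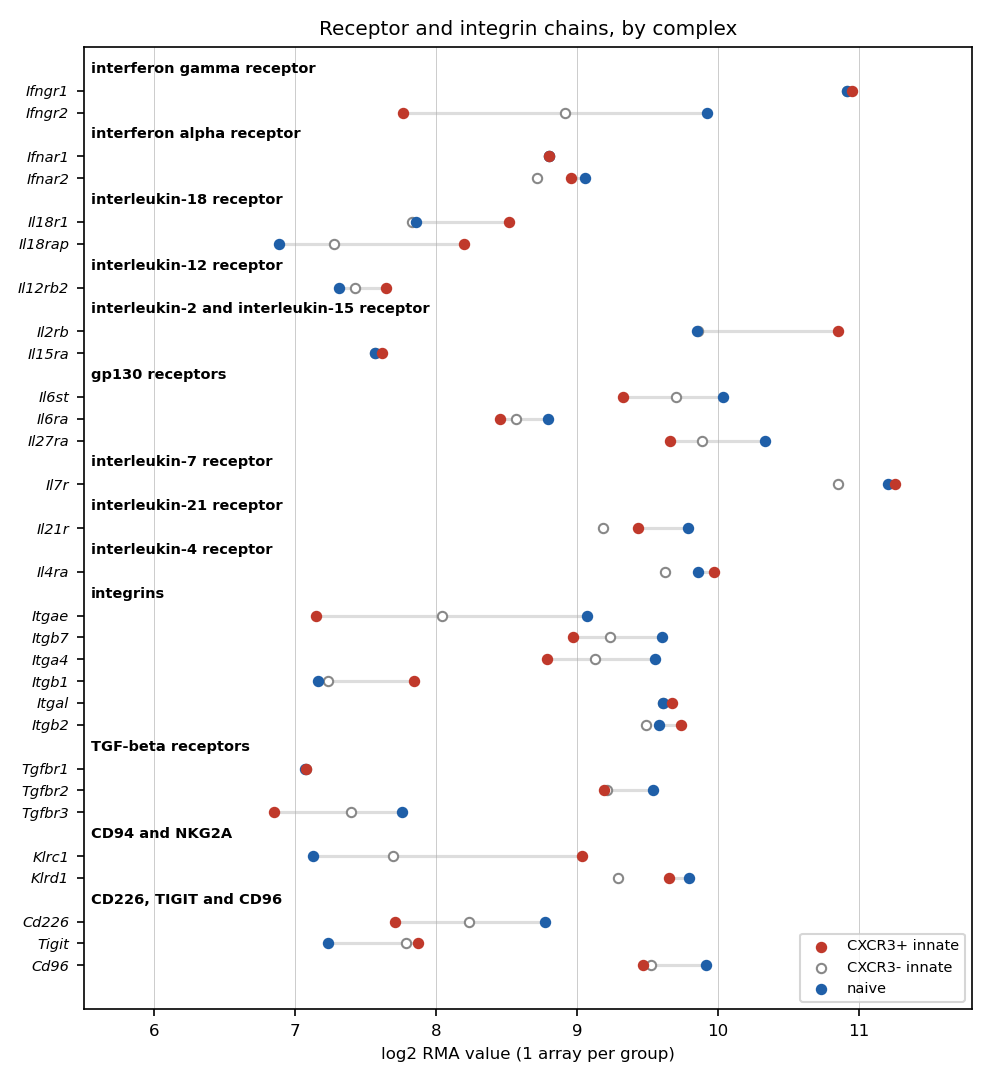
Log2 values on the x axis of receptor and integrin chains grouped by complex, in CXCR3+ innate (red), CXCR3- innate (open) and naive cells (blue), 1 array each; a hidden circle lies under another. Ifngr2, Itgae, Klrc1 and Cd226 are far apart on the arrays while Ifngr1 and Klrd1 differ by 0.03 and -0.14 between CXCR3+ innate and naive cells.

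Integrin chains differed by partner. Itgae, the alpha chain of CD103, which binds E-cadherin and is carried by naive CD8+ T cells in this strain, was at 7.15 in CXCR3+ and 8.04 in CXCR3- innate cells and at 9.07 in naive cells, 3.78-fold lower. Itgb7, its only beta partner, was at 8.97, 9.23 and 9.60, 1.55-fold lower, though not after quantile normalization. Itga4, which pairs with the beta 7 or the beta 1 chain to bind vascular ligands, was at 8.78, 9.12 and 9.55, 1.70-fold lower. Itgb1 went the other way, at 7.84, 7.23 and 7.16, or 1.60-fold higher. The leukocyte integrin LFA-1 did not pass in either chain, with Itgal at 9.67 and 9.61 and Itgb2 at 9.74 and 9.58. Pecam1, a homophilic adhesion molecule of naive T cells and endothelium, was 1.83-fold lower at 7.80, 8.23 and 8.68. Of 22 measured integrin and adhesion genes 2 were higher and 4 lower, against 0.5% and 0.697% of all genes, with a median of -0.04. The higher ones were Itgb1 and the sort marker Cd44, which is no result for the list.

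Itgae is a known target of transforming growth factor beta, and members of that pathway were looked at beside it. Tgfbr3, the co-receptor betaglycan, was at 6.85 in CXCR3+ and 7.39 in CXCR3- innate cells and at 7.76 in naive cells, 1.88-fold lower. Tgfbr2, the ligand-binding receptor, was at 9.19 and 9.53, and Tgfbr1 was at 7.08 and 7.07. The signal transducers Smad3 and Smad4 differed by 0.41 and -0.45, and none of these 4 passed. Of 19 measured genes 2 were lower, against 0.697% of all genes, none was higher and 6 were equal, with a median of -0.06. The lower ones were Tgfbr3 and Itgae itself, which led to this list and whose call is therefore no result for it.

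Genes of homing and of the naive state were also among those that were lower. Ccr7 was at 11.19 in CXCR3+ and 11.56 in CXCR3- innate cells and at 12.0003 in naive cells, 1.75-fold lower while among the brightest genes of both arrays. S1pr1 was at 9.34, 9.60 and 10.13, 1.73-fold lower. Cxcr5, through which cells enter B cell follicles, was higher, at 7.94, 7.76 and 7.15 or 1.72-fold. It was the only chemoattractant receptor of 16 measured to pass upward, beside 2 downward, against 0.5% and 0.697% of all genes. The median of that list was 0.03. Igfbp4, a secreted binding protein of insulin-like growth factors, was at 8.16, 8.54 and 9.37, 2.32-fold lower. Igfbp4 and Ccr7 lie close together in the genome, with 1 protein-coding gene between them. Of 32 measured naive T cell genes outside transcription factors 10 were lower, 31.3% against 0.697% of all genes, and none was higher. The list median was -0.22, or -0.19 after cyclic loess. This list too was written with earlier results of these data known, so its share is no independent support.

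The other lower members of that list have varied roles. Trib2, a pseudokinase, was at 7.77 in CXCR3+ and 8.69 in CXCR3- innate cells and at 9.04 in naive cells, 2.42-fold lower. Als2cl, a relative of the exchange factor alsin, was at 7.51, 7.97 and 8.61, and Dapl1, a small protein related to death-associated protein, was at 10.06, 10.49 and 10.95. Actn1, an actin crosslinker, was at 9.73, 10.03 and 10.53, 1.74-fold lower, and Rflnb, which binds the actin crosslinker filamin, was at 8.88, 9.12 and 9.62, 1.67-fold lower. In each of these 5 genes the naive value was the highest and the CXCR3+ innate value the lowest. Members of the same list also stayed level: Il7r, named above, Rgs10 at 8.77 and Ramp1 at 8.12 did not differ by more than 0.05. Ms4a4c was at 8.66 and 8.11, a difference of 0.54 toward CXCR3+ innate just short of the threshold.

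**Figure D4:**
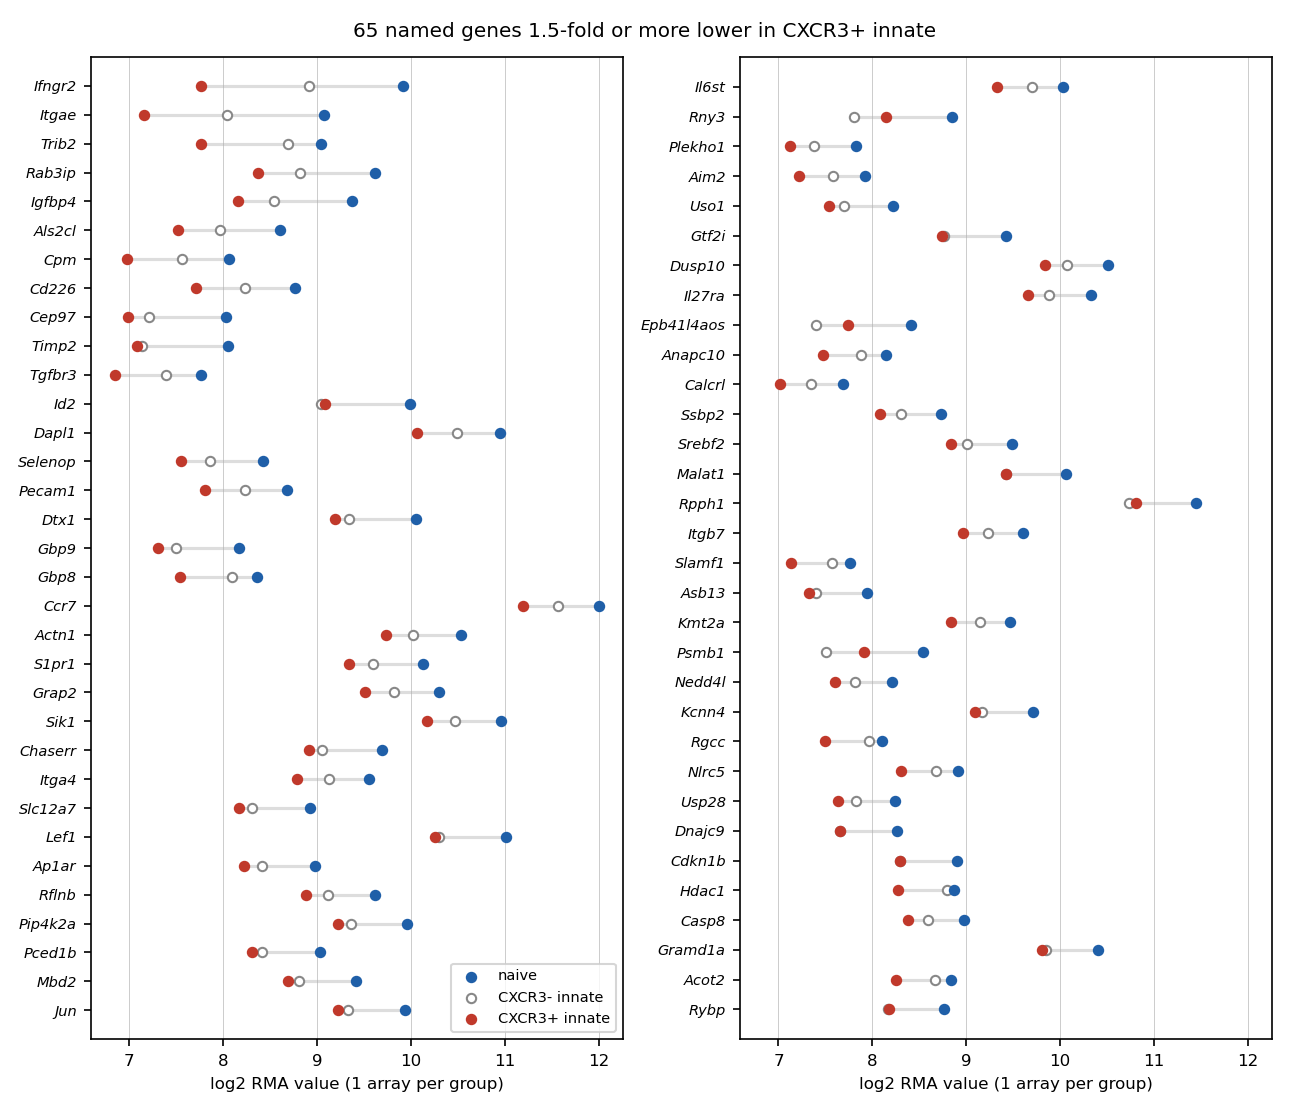
The 65 nameable genes that were lower by the size rule are listed by fold over both panels, with log2 values on the x axis in CXCR3+ innate (red), CXCR3- innate (open) and naive cells (blue), 1 array each; a hidden circle lies under another. Many of these genes were bright, and Ccr7 is the brightest.

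Transcription factors of the naive state differed little one by one. Lef1, a partner of beta-catenin, was at 10.25 in CXCR3+ and 10.30 in CXCR3- innate cells and at 11.01 in naive cells, 1.69-fold lower. It was the only 1 of 27 measured to pass, 3.70% against 1.2% of all genes. The list was bright, with median values of 8.96 and 9.19 in CXCR3+ innate and naive cells. Of all genes between 8 and 9, 2% were 1.5-fold apart, and of those between 9 and 10, 3.98%. Bcl11b, a factor that keeps T cell identity, differed by -0.51, the chromatin organiser Satb1 by -0.44, Klf7 by -0.43, Klf2, a quiescence factor that drives S1pr1, by -0.33, and Foxo1 by -0.23. In all, 18 members were below 0, 3 above and 6 equal, with a median of -0.21, or -0.18 after cyclic loess and -0.13 after quantile normalization. Jun, an AP-1 factor, was at 9.22, 9.33 and 9.94, 1.65-fold lower. It was the only 1 of 31 immediate early and stress genes to pass, 3.23% against 1.2% of all genes. That list was as bright, with median values of 9.14 and 9.20. Fos at -0.47 and Jund at -0.44 lay on the same side, whereas Fosb at 0.47, Nr4a2 at 0.50 and Nr4a1 at 0.33, an orphan receptor gene induced by antigen receptor signals, lay on the other.

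Antigen receptor signalling genes were mostly slightly lower and seldom past the threshold. Grap2, encoding the adaptor GADS, was at 9.51 in CXCR3+ and 9.82 in CXCR3- innate cells and at 10.30 in naive cells, 1.73-fold lower. It was the only member past the rule of 34, 2.94% against 1.2% of all genes. The list was bright, with median values of 9.02 and 9.21 in CXCR3+ innate and naive cells. Of all genes between 8 and 9, 2% were 1.5-fold apart, and of those between 9 and 10, 3.98%. Lat, the membrane adaptor to which GADS binds, was at 10.47, 10.55 and 11.03, just outside at 1.47-fold. Of the list 24 members were below 0, 3 above and 7 equal, and the median was -0.23, or -0.20 after cyclic loess and -0.16 after quantile normalization. Among the brakes of this signalling, the phosphatase genes Dusp5 and Dusp10 passed in opposite directions. They were the only 2 of 31 measured to pass, 6.45% against 1.2% of all genes. Dusp5, which acts on ERK, was at 9.71, 8.89 and 9.04, 1.59-fold higher. Dusp10, which acts on p38 and JNK, was at 9.84, 10.08 and 10.51, 1.60-fold lower. Dgka, a kinase that removes diacylglycerol, was at 11.53 and 12.08, just outside. Spry2, an inhibitor of Ras signalling, was 1.78-fold higher but below the level filter.

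Regulators of small GTPases held a pair of genes past 2-fold on the lower side. Rab3ip, which activates the vesicle GTPase Rab8, was at 8.37 in CXCR3+ and 8.82 in CXCR3- innate cells and at 9.62 in naive cells, 2.38-fold lower. The second was Als2cl, given above. Of 33 measured genes these 2 were lower, against 0.697% of all genes, and none was higher. In all, 22 were below 0 and 7 above, with a median of -0.14, or -0.11 after cyclic loess and -0.04 after quantile normalization. On the higher side, outside this list, Dennd4a, an activator of Rab10, was at 9.78, 9.42 and 9.10, and Gem, a small GTPase that inhibits calcium channels, was 1.75-fold higher.

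Some cytoskeletal and memory-associated genes were higher. Plek, a protein kinase C substrate of blood cells, was at 9.02 in CXCR3+ and 8.35 in CXCR3- innate cells and at 7.85 in naive cells, or 2.24-fold. Lgals1, encoding galectin-1, was at 9.17, 8.38 and 8.37, or 1.73-fold, and the motor gene Myo1f was at 8.24, 7.50 and 7.50, or 1.67-fold. For Lgals1 and Myo1f, as for Il2rb, the CXCR3- innate value lay within 0.01 of the naive value. Of 28 measured members of the S100, annexin and cytoskeletal list these 3 were higher and none passed as lower, against 0.5% of all genes higher. The list had 9 members above 0 and 12 below, with a median of 0, and Anxa2, at 7.53 and 6.79, was below the level filter. Ahnak was at 8.26 and 7.78 and Vim at 9.66 and 9.54, while Anxa5 differed by -0.48. Of 22 measured surface antigens of memory-phenotype cells 3 were higher and none lower, against 0.5% of all genes higher, with a median of 0. They were Ly6c2, Il2rb and Cd44, whose product was stained for the sort and whose value is therefore no result for the list.

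Some single genes that act on glycans are given next; they were put together after their values were seen, from no list, and no count is drawn from them. Gnptab, which makes the mannose 6-phosphate tag of lysosomal enzymes, was at 8.65 in CXCR3+ and 7.81 in CXCR3- innate cells and at 7.71 in naive cells, or 1.92-fold. Chst11, a sulfotransferase of chondroitin chains, was at 8.15, 7.70 and 7.48, or 1.59-fold. Chsy1, which polymerises those chains, was at 8.76, 8.19 and 8.09, or 1.60-fold. Its 2 probe sets differed, at 0.19 and 1.17, so the call rests on 1 of them. Arsb, a lysosomal sulfatase of the same chains, was at 8.64, 8.05 and 8.05, or 1.51-fold, and did not pass with the offset on the linear scale. St3gal6, a sialyltransferase of selectin ligands, was at 8.06 and 7.49, just outside at 1.49-fold. On the lower side Gnpda1, of glucosamine catabolism, was at 5.96 and 7.22 and St8sia1, a ganglioside sialyltransferase, at 6.61 and 7.49, both below the level filter.

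The remaining genes among the 30 with the largest difference upward have less shared function. Rnf138, a ubiquitin ligase of DNA repair, was at 8.47 in CXCR3+ innate and 7.55 in both other populations, or 1.90-fold. Nod1, a sensor of bacterial peptidoglycan, was at 8.30 against 7.54 in both others, or 1.69-fold. Rpa3, a subunit of the single-stranded DNA binding complex, was at 8.52, 8.05 and 7.77, and Cd300ld3, of a myeloid receptor family with many close copies, was at 10.73, 10.41 and 10.04. Adh6b, an alcohol dehydrogenase, was at 7.80, 7.79 and 6.96. Some genes past the rule are known mainly from other tissues, such as the skin barrier gene Lce1f at 9.02, 8.65 and 8.34, the testis gene Cypt3 at 8.44 and 7.78, and the interferon gene Ifna7 at 8.15 and 7.51. The last 2 were singled out after their values were seen.

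On the lower side, a mixed group followed the receptors. Cpm, a membrane carboxypeptidase, was at 6.97 in CXCR3+ and 7.57 in CXCR3- innate cells and at 8.06 in naive cells, 2.13-fold lower. Cep97, a regulator of cilia, was at 6.98, 7.21 and 8.03, and Timp2, an inhibitor of matrix proteases, was at 7.08, 7.13 and 8.05, or 1.96-fold lower. In Cep97 and Timp2 both innate arrays were low and the naive array stood apart. Dtx1, a ubiquitin ligase of Notch signalling, was at 9.19, 9.34 and 10.05, 1.82-fold lower. The kinase gene Sik1 was at 10.18, 10.47 and 10.96, and Selenop, a selenium transport protein, was at 7.55, 7.86 and 8.43. The potassium chloride cotransporter gene Slc12a7 was at 8.16, 8.31 and 8.93. It was the only 1 of 176 measured solute carriers to pass, 0.568% against 1.2% of all genes. The lipid kinase gene Pip4k2a was at 9.22 and 9.96, Ap1ar, an adaptor of vesicle transport, at 8.22 and 8.98, and the noncoding RNA Chaserr at 8.91 and 9.69. Malat1, a nuclear noncoding RNA, was at 9.42 and 10.06, but its 2 probe sets differed by -0.91 and -0.37 and the brighter one did not pass. All other genes past the rule rest on 1 probe set each, apart from Chsy1.

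Housekeeping programmes held at most 1 member past the rule each, against 1.2% of all genes. In lists this short, 1 gene is already 4.55% of the cell cycle and 5.88% of the survival and death genes. It is 10% of the sterol genes and 2.56% of the proteasome subunits. Of 22 measured cell cycle genes 1 was lower, the cell cycle inhibitor Cdkn1b at 8.30 in both innate populations and 8.90 in naive cells. Of 17 survival and death genes 1 was lower, Casp8 at 8.38, 8.59 and 8.98. Both calls were lost under 4 of the 6 other scalings and summaries tried. Srebf2, the activator of sterol synthesis, was at 8.84 and 9.48 and was the only 1 of 10 sterol genes to pass, and not after quantile normalization. No gene passed among 15 glycolysis, 12 fatty acid oxidation and 9 cytokine genes, nor among 50 cytosolic ribosomal protein, 55 oxidative phosphorylation, 47 translation factor and 163 zinc finger genes picked by symbol. Of 39 proteasome subunits 1 was lower, Psmb1 at 7.92 and 8.53, and not after quantile normalization. Many members were equal on both arrays, and an equal value does not show an equal expression.

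**Figure D5:**
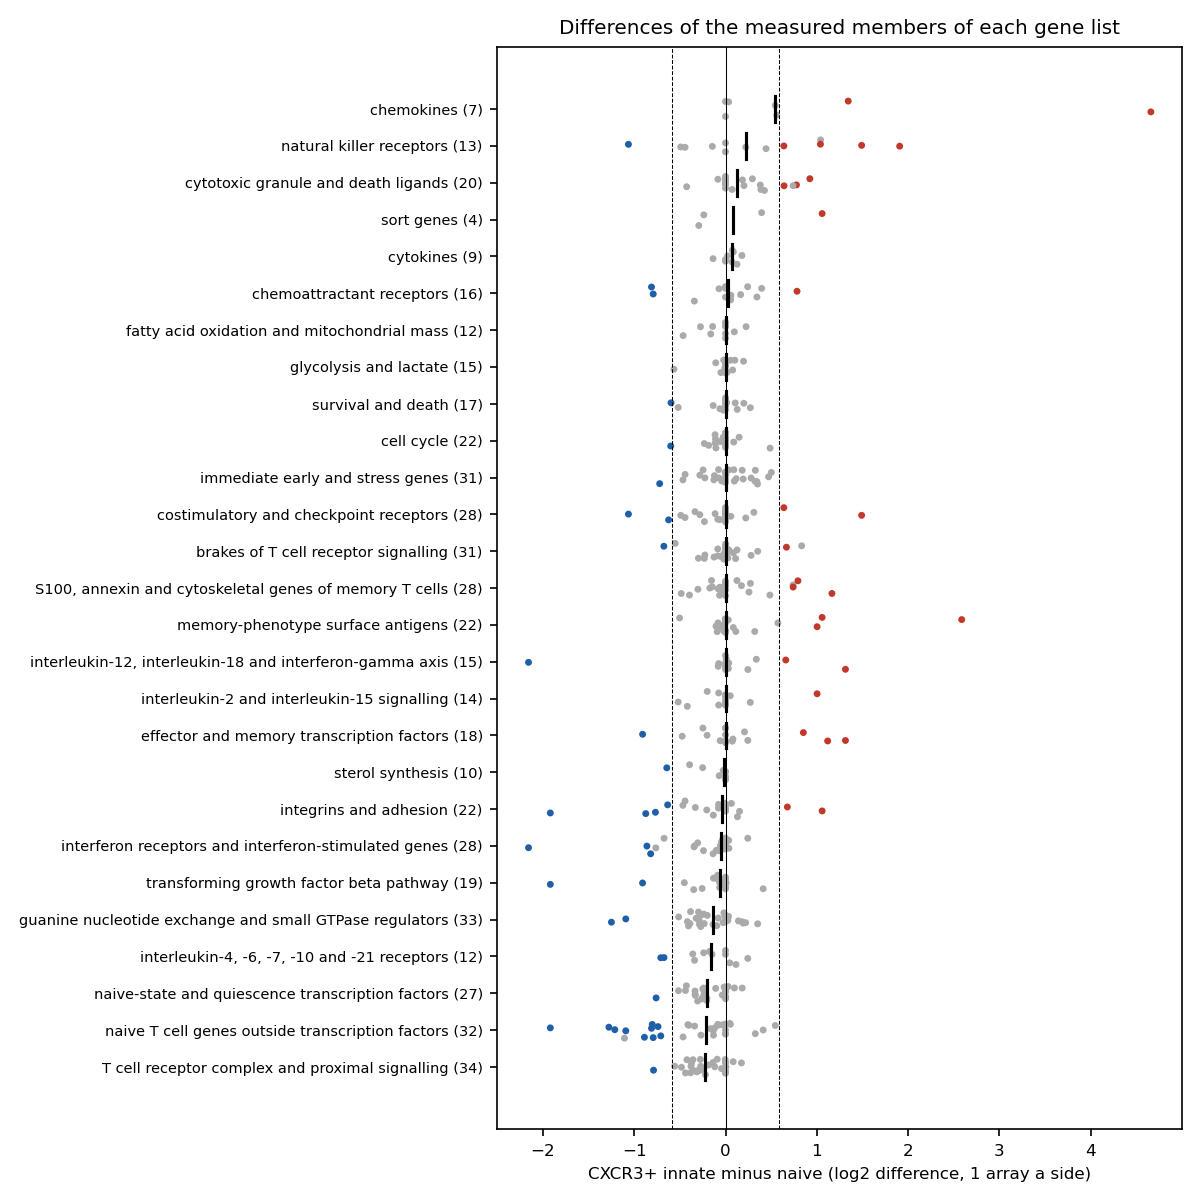
Each row is a gene list with its number of measured members, points give each member's log2 difference between CXCR3+ innate and naive cells on the x axis, and the black bar is the median; points are spread vertically for clarity. Red points are higher and blue points lower by the size rule, grey points are the rest, dashed lines mark 1.5-fold, and a grey point past a dashed line is below the level filter. Chemokines, with a median of 0.54, and T cell receptor signalling, with -0.23, are at the ends.

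The threshold itself divides close values. On the higher side the listed genes just inside were Tigit at 0.64, Ctsw at 0.64 and Il18r1 at 0.66, and those just outside were St3gal6 at 0.57, Ccl4 at 0.56 and Ms4a4c at 0.54. On the lower side Casp8 at -0.60, Cdkn1b at -0.60 and Slamf1 at -0.62 were just inside, and Slc16a1 at -0.56, Lat at -0.56 and Dgka at -0.55 just outside. Of the 51 genes that were higher, 14 were past 2-fold, 0.137% of all genes, and 37 lay between 1.5-fold and 2-fold, and of the 71 that were lower, 10 (0.0981%) and 61, so 24 genes (0.236%) were past 2-fold. Higher genes had a median of 8.52 on the CXCR3+ innate array and 7.55 on the naive array, where 28 of them lay below the array median. Lower genes were brighter, with a median of 8.98 in naive and 8.22 in CXCR3+ innate cells, where 20 lay below the array median. The split of 41.8% higher among the calls became 53.5% after quantile normalization, with 61 higher and 53 lower. By symbol, 9 higher and 6 lower genes were microRNA, small nucleolar RNA, nose receptor or predicted genes, which were counted and not named. Against 1.2% of all genes, 2.88% of 139 microRNA genes passed, with 4 higher and 0 lower. Of 64 small nucleolar, Cajal body and nuclear RNAs 4.69% passed, 1 higher and 2 lower. The share was 0.554% of 542 nose receptor and 0.59% of 847 predicted genes. Of the nameable genes, 40 of 42 higher and 44 of 65 lower ones passed under each of 6 other scalings and summaries.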

How the data were processed

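The authors deposited log2 expression values per probe set for 3 arrays, 1 for each sorted population. Per the submitters' processing notes the tools were RMA and Affymetrix Expression Console; their versions and settings are not given in the sources used here. As a method, RMA removes background, equalises the arrays' distributions and summarises the probes of a set over all arrays together. The deposited table holds 12417 probe sets. Of these 10576 had 1 gene symbol in the platform annotation, 1108 had several and 733 none. The first kind was averaged per gene to 10191 genes, of which 273 had several probe sets and 10149 matched RefSeq by Entrez identifier. Differences are CXCR3+ innate minus naive. No build is named for the array, so coordinates are given only for promoters, from RefSeq tables of GRCm38.p6.

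The comparison, the 27 functional lists (487 of 730 symbols measured), the 12 marker lists and the rules were chosen with earlier results of these data known. Named were the sort genes, up to 30 genes in each direction by size, listed genes past the rule and those nearest the threshold. Other genes named, receptor partners included, were chosen after their values were seen. Alternatives were other thresholds, level filters, quantile normalization, cyclic loess, median centring, an offset of 16, a floor at 7 and other probe set summaries. Counting by the 1.5-fold threshold, without the level filter, was tried on simulated arrays. The differences set in them lay away from the threshold, so the trial does not tell how far calls near it can be trusted. Python 3.11.15, numpy 2.4.6, pandas 2.3.3, matplotlib 3.10.9, R 4.3.3 and limma 3.58.1 were used. The number of arrays limits the precision.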

Additional observations from a re-analysis of the deposited data

Results flagged for a closer look

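In 3 of the nameable genes past the size rule the CXCR3- innate value lay on the other side of the naive value from the CXCR3+ innate value. Each comparison has 1 array a side and both share the naive array, so the difference between them was not tested. For Dusp5 the difference from naive cells was 0.67 in CXCR3+ innate and -0.15 in CXCR3- innate cells. Il18r1 differed by 0.66 and -0.03. Ctsw differed by 0.64 and -0.45, the widest separation of the 3.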

How the results depend on the processing

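No paired analysis was possible because each population has 1 array, and for the same reason no replicate could be left out. A threshold of 2-fold gave 14 higher and 10 lower genes, and one of 3-fold gave 3 and 2. The counts stayed within 1.5 times under every other alternative: 59 and 84 without the level filter, 34 and 56 with it at the 75th percentile, 54 and 62 after cyclic loess, 53 and 63 after median centring, and 48 and 59 with the offset. All 51 higher genes passed after quantile normalization, cyclic loess and median centring, whereas 52, 62 and 63 of the 71 lower genes did. Without the classes that were only counted, an alternative added after the data were seen, 42 and 65 genes passed. No nameable gene past the size rule took the other sign under these alternatives. List medians moved by 0.1 or more in 3 cases: natural killer receptors to 0.09 with values below 7 set to 7, and, over members above the level filter alone, chemokines to 0.95 and sterol synthesis to -0.39.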

Other observations

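Of the 1841 probe sets without a single gene symbol, 4 were higher and 13 lower by the same size rule, 0.923% against 1.2% of the named genes. Besides the genes past the rule, 8 higher and 13 lower genes were 1.5-fold apart with both values below the array medians. The largest of these were Gnpda1, given above, Plaur, the urokinase receptor gene, at 6.30 and 7.42 in CXCR3+ innate and naive cells, and Cnn3, encoding calponin 3, 2.15-fold lower. The growth factor receptor gene Igf1r, whose ligands Igfbp4 binds, was at 6.49 and 7.35. Of 106 genes past the rule that could be placed in the RefSeq gene order, 3 pairs had at most 1 protein-coding gene between them: Il18r1 with Il18rap, Gbp8 with Gbp9, and Igfbp4 with Ccr7.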
